A study of Mus musculus with 2 samples.

Results

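The cells described here are 400 mast cells taken from explant cultures of E8.5 mouse concepti, the cells with the most UMIs of *Fbp2*, *Hapln1*, *Pxdc1*, *Cd276* and *Car8* among 3992 cells with high *Cpa3*. They were selected on measured values. Barcodes with 1000 to 5000 genes and at most 5% mitochondrial UMIs were kept, of these the cells with at least 40 *Cpa3* UMIs and fewer than 20 *Mcpt1* UMIs per 10000 UMIs, and of these the top 10% by the summed level of the 5 genes, with both libraries ranked together. They made up 400 of 5158 filtered cells and of 6541 barcodes. Of the 400 cells, 274 came from cultured embryos proper (Em-Ex) and 126 from cultured yolk sacs (YS-Ex).

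Intraembryonic tissue and yolk sacs of C57/BL6 concepti with 5 to 7 somite pairs (Theiler stage 12) were separated, and the explants were grown for 9 to 10 days where air met medium, with 20% FCS and SCF, IL-3 and FLT3 ligand at 100 ng/ml each. Both groups therefore shared strain, stage, medium and cytokines. Cells with the surface phenotype CD31+CD45+c-Kit+CD41- were sorted, and each group was sequenced as 1 droplet library from pooled concepti. With 1 library per group no test was possible, and the 95% intervals below (exact Poisson for levels and ratios, exact Clopper-Pearson for shares of cells) cover counting error only. They do not hold the spread between cells, embryos or cultures.

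Mast cells are granule-rich haematopoietic cells that store histamine, serotonin, heparin and proteases, and they grow from progenitors under SCF, the ligand of c-Kit, and IL-3. *Cpa3* encodes the carboxypeptidase of their granules. The 5 genes of the selection have unlike roles: *Fbp2* encodes the muscle form of fructose-1,6-bisphosphatase, a gluconeogenic enzyme, *Hapln1* a link protein that ties hyaluronan to proteoglycans, *Cd276* the B7 family protein B7-H3, and *Car8* a carbonic anhydrase relative without catalytic activity that binds the inositol trisphosphate receptor. *Pxdc1* encodes a protein with a PX domain. *Ddc*, which encodes aromatic L-amino acid decarboxylase, an enzyme of serotonin and dopamine synthesis, and *Serpinb1a*, an inhibitor of neutrophil-type serine proteases, were also given as marks of these cells and took no part in the selection.

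The summed level of the 5 genes spread continuously in both libraries, with no gap at the limit of 7.04 UMIs per 10000. The 3 cells just inside the limit stood at 7.0435, 7.0464 and 7.0500, and the 3 just outside at 7.0383, 7.0253 and 7.0182. Within 0.5 UMIs per 10000 of the limit there were 60 cells above and 61 below it, so the limit divides a continuous sum. Whether the cells also form a group apart by other genes cannot be read from the sum that chose them. The median over all Cpa3-high cells was 2.49 in Em-Ex and 0.927 in YS-Ex, and 323 Em-Ex cells (15.6%) and 701 YS-Ex cells (36.6%) had no UMI of any of the 5 genes.

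**Figure D1:**
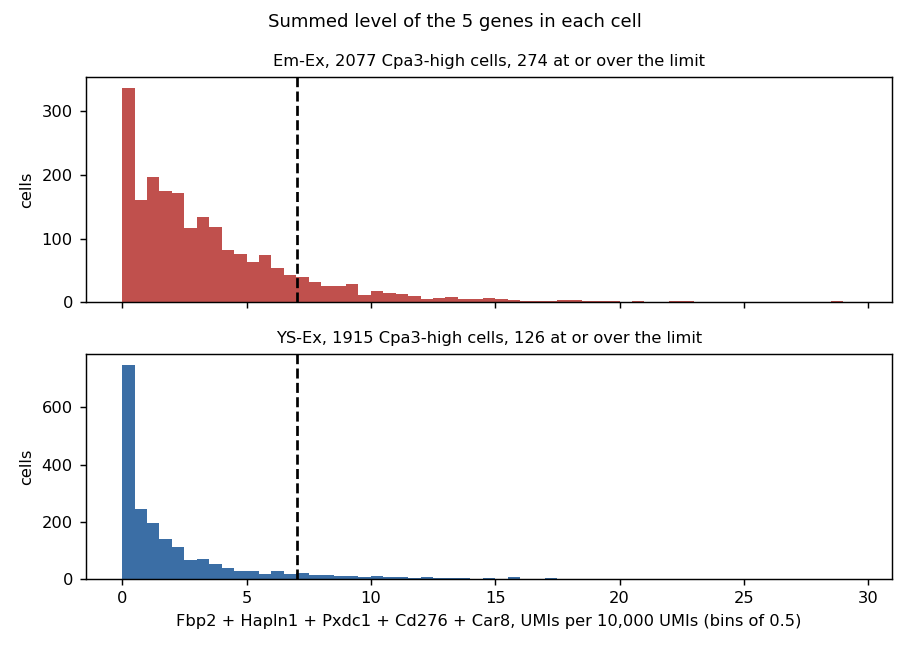
Histograms of the summed UMIs of the 5 selection genes per 10000 UMIs in each Cpa3-high cell, by library, with the selection limit as a dashed line. Cell numbers fall off without a gap at 7.04, beyond which 274 Em-Ex and 126 YS-Ex cells lie.

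The selected cells were 13.2% (11.8 to 14.7) of the 2077 Cpa3-high cells of Em-Ex and 6.58% (5.51 to 7.78) of the 1915 of YS-Ex. The Em-Ex share was above the YS-Ex share by more than counting error, which with 1 library each cannot be told apart from a difference between libraries. The YS-Ex share rested on *Fbp2*, without which in the sum the shares were 16.03% and 3.50%. Selected cells carried a median of 13 UMIs of the 5 genes in Em-Ex and, in YS-Ex, of 11, and at least 3 in both. Their median depth was 13916 UMIs in Em-Ex, against 11196 in the other Cpa3-high cells, and 11194.5 against 11886 in YS-Ex. Median mitochondrial shares were 2.81% against 3.21% in Em-Ex and 3.20% against 3.62% in YS-Ex. The libraries shared 35 barcodes, of which 5 were selected cells in Em-Ex and 5 in YS-Ex, and without shared barcodes the shares were 13.2% and 6.48%.

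The selected cells carried the mast cell programme of the cells around them. The listed mast cell identity genes, of which 29 were in the table, were summed without genes of the selection such as *Cpa3*. Their pooled level in selected cells was 43192 UMIs per 1000000 (CPM) in Em-Ex against 43410 in the other Cpa3-high cells, and 45786 against 40733 CPM in YS-Ex. *Cma1*, a chymase of connective tissue mast cells, was pooled to 16769 CPM in selected Em-Ex cells and to 18082 CPM in selected YS-Ex cells. *Tpsb2*, a tryptase, was at 6707 and 8774 CPM. *Kit* was at 335 against 342 CPM in Em-Ex and at 1102 against 983 CPM in YS-Ex. Among the sort genes, *Pecam1* (CD31) was at 58.0 and 63.7 CPM, *Ptprc* (CD45) at 36.3 and 87.5 CPM and *Itga2b* (CD41) at 10.3 and 19.9 CPM in selected cells of Em-Ex and YS-Ex. *Cpa3* itself, which the selection used, was 0.738 times the level of the other cells in Em-Ex and 0.772 times in YS-Ex.

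Lists of markers of other blood cells were summed beside the other Cpa3-high cells. The progenitor and stem cell list was at 885 against 699 CPM in Em-Ex, a ratio of 1.27 (1.22 to 1.31), and at 1244 against 766 CPM in YS-Ex, a ratio of 1.62 (1.55 to 1.70). The basophil list, parts of which mast cells share, was at 1788 against 1774 CPM and 2151 against 2243 CPM. The 7 neutrophil progenitor genes in the table summed to 37.1 against 30.5 CPM in Em-Ex and 28.3 against 20.3 CPM in YS-Ex. Of these sums, *Gfi1* was 25.48 against 14.93 CPM in Em-Ex and 20.59 against 13.05 CPM in YS-Ex. The rise was thus that of *Gfi1*, and the rest of the list summed lower in Em-Ex and nearly level in YS-Ex. In selected cells of Em-Ex and YS-Ex, *Mpo* was at 4.29 CPM and at 0 and *Prtn3* at 4.29 and 0.643 CPM. The 9 erythroid genes summed to 110.5 against 123 CPM in Em-Ex and to 54.1 against 271 CPM in YS-Ex. The macrophage list summed to 208 CPM in the selected cells of both libraries, against 281 CPM for the other Em-Ex and 127 CPM for the other YS-Ex cells (ratios of 0.740 and 1.63), and *Cx3cr1*, a chemokine receptor on that list, was at 127 against 42.8 CPM in YS-Ex. *Lyz2*, a lysozyme gene of macrophages and other myeloid cells, was at 16.6 CPM in selected Em-Ex cells and 5.79 CPM in selected YS-Ex cells. In the Cpa3-low cells, a mixed set, it was at 277 and 733 CPM. Whether other cells or free RNA took part in the results was not tested beyond these levels.

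The name by *Fbp2*, *Hapln1* and *Car8* did not describe single cells well, because few cells held both *Fbp2* and *Hapln1* and the libraries differed in which of them was found. *Fbp2* had UMIs in 49 of 274 selected cells of Em-Ex and in 101 of 126 of YS-Ex. *Hapln1* had UMIs in 162 of 274 and in 27 of 126. Both genes were found together in 15 Em-Ex cells (5.47%) and 16 YS-Ex cells (12.7%), and 78 and 14 cells had neither. Of the 27 YS-Ex cells with *Hapln1*, the 16 that also held *Fbp2* outnumbered the 11 without it, whereas 147 of the 162 Em-Ex cells with *Hapln1* lacked *Fbp2*. All 5 genes had UMIs in 6 Em-Ex and 4 YS-Ex cells, and the median selected cell had UMIs of 3 of them in each library. Since the selection used these genes, these counts are a description.

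The gene with the most UMIs of the 5 differed between the libraries. In Em-Ex it was *Car8* in 101 cells, *Hapln1* in 77, *Pxdc1* in 43, *Fbp2* in 33 and *Cd276* in 2, with ties in 18. In YS-Ex it was *Fbp2* in 86 of 126 cells (68.3%), *Car8* in 16, *Hapln1* in 9, *Pxdc1* in 5 and *Cd276* in 1, with ties in 9. The selected cells of Em-Ex were thus led mainly by *Car8* and *Hapln1* and those of YS-Ex by *Fbp2*. In terms of level, *Fbp2* stood at 92.1 CPM in selected cells of Em-Ex and 555 CPM in YS-Ex (7.35 and 21.5 CPM in the other Cpa3-high cells), and *Hapln1* at 313 and 81.7 CPM (27.3 and 5.01 CPM). *Car8* was at 372.5 and 233 CPM (135.8 and 58.7 CPM in the other cells), *Pxdc1* at 208 and 107 CPM (49.8 and 18.6 CPM) and *Cd276* at 73.4 and 64.3 CPM (35.9 and 25.3 CPM).

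**Figure D2:**
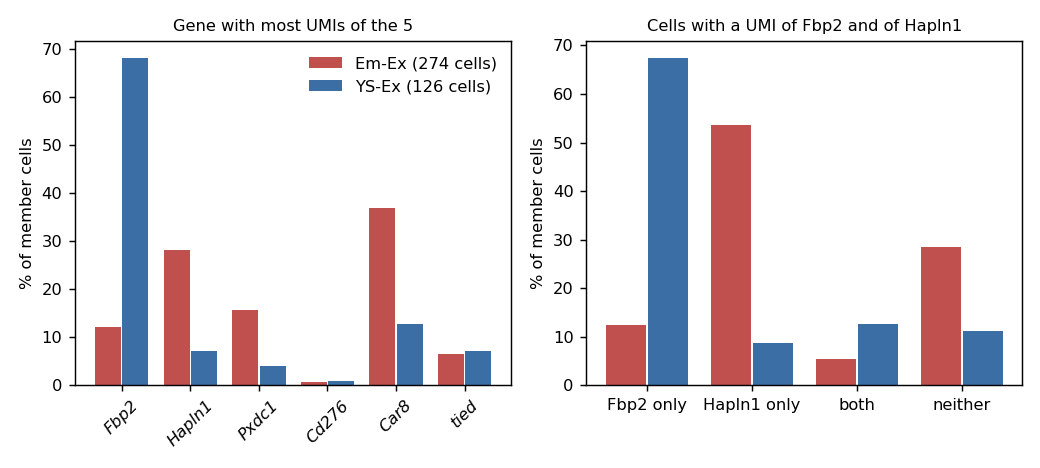
Left, the share of selected cells in which each selection gene had the most UMIs, by library. Right, the share with a UMI of *Fbp2* only, of *Hapln1* only, of both or of neither; *Fbp2* leads 68.3% of the YS-Ex cells and both genes share few cells in either library.

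After each cell was thinned to 3000 UMIs, *Fbp2* was found in 15.3% (11.3 to 20.1) of selected Em-Ex cells and 64.3% (55.3 to 72.6) of selected YS-Ex cells. In the Cpa3-low cells of the sort it was found in 1.61% and 5.67%, and in the other Cpa3-high cells, from which the selection had removed the cells rich in it, in 1.83% and 4.92%. In the Mcpt1-high cells it was found in 0.813% in Em-Ex and, among 31 cells, in 19.4% (7.45 to 37.5) in YS-Ex. Unthinned, the selected cells held it in 17.9% and 80.2%. *Hapln1* was found in 40.9% and 15.9% of selected cells after thinning, against 3.90% and 3.55% of Cpa3-low cells, and in 59.1% and 21.4% before it.

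Each gene was also read in the top 10% of cells chosen by the other 4, which keeps its own UMIs out of the choice. *Hapln1* was then 1.99 times higher (1.79 to 2.22) in Em-Ex and 2.63 times (1.84 to 3.68) in YS-Ex than in the remaining Cpa3-high cells. *Pxdc1* was 2.07 and 3.06 times higher, *Car8* 1.82 and 2.69 times and *Cd276* 1.32 and 1.90 times. *Fbp2* went in opposite directions: it was at 16.1 against 21.1 CPM in Em-Ex, a ratio of 0.765 (0.593 to 0.974), and at 219 against 49.6 CPM in YS-Ex, a ratio of 4.42 (3.74 to 5.20). The other 4 genes were thus higher in both libraries when left out of the choice, and *Fbp2* in YS-Ex alone. The difference between the libraries was not tested.

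The windows before the start of *Fbp2*, which led most selected YS-Ex cells, and of *Gnai1*, the gene outside the selection that ranked first by the ratio nearer to 1 of its 2 libraries, are shown for comparison. They were taken from RefSeq (GRCm38.p6) on the minus strand, chr13:62858423-62858650 for *Fbp2* and chr5:18360414-18360663 for *Gnai1*, up to the outermost annotated start, and are written 5′ to 3′ in the direction of the gene. Capitals mark the E-boxes CACGTG and CATGTG, the kind bound by MITF, a mast cell transcription factor, and the GATA factor motif AGATAA, each searched on both strands.
Fbp2: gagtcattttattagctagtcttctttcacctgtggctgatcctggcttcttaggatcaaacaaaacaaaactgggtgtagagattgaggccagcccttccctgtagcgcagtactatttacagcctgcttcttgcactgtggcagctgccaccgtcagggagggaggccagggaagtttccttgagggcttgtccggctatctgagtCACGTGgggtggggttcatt
Gnai1: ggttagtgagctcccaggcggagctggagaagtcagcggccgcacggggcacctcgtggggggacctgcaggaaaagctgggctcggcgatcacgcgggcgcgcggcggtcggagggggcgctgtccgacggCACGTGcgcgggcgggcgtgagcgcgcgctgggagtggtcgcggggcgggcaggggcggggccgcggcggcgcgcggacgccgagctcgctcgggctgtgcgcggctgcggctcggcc
Each window held 1 E-box and no GATA motif. Among 32851 RefSeq windows of 250 bases, 17.6% held such an E-box and 9.99% the GATA motif, and a match describes letters only.

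Genes outside the selection were compared between the selected cells and the other Cpa3-high cells of the same library. Of 4266 genes with at least 20 CPM in either group of both libraries, 39 were at least 1.5 times higher in both libraries (0.914%) and 55 at least 1.5 times lower in both (1.29%). With ratios centred on their median the split was 25 higher and 59 lower. Within Em-Ex alone 68 genes (1.59%) were higher and 98 (2.3%) lower, and within YS-Ex alone 156 (3.66%) and 131 (3.07%). The 39 genes were 57.4% of those higher in Em-Ex and 25% of those higher in YS-Ex, and no gene was 1.5 times higher in one library and lower in the other. The limit could be met by 1 group alone: 18 of the 39 higher genes were under it in the other Cpa3-high cells of at least 1 library (5 of them in both), as were 33 of the 55 lower genes in the selected cells, so these had to differ to be counted. The 5 were *Gnai1*, *Col18a1*, *Nav1*, *Gfi1* and *Ptgir*. Those under it in 1 library included *Speer4e*, *Hmga2*, *Car2*, *Edil3*, *Pmp22*, *Adgrg3* and *Cd244* in YS-Ex, and *Loxl2*, *Igf2* and *Galc* in Em-Ex. The median log2 ratio over all 4266 genes was 0.07 in Em-Ex and 0.04 in YS-Ex.

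**Figure D3:**
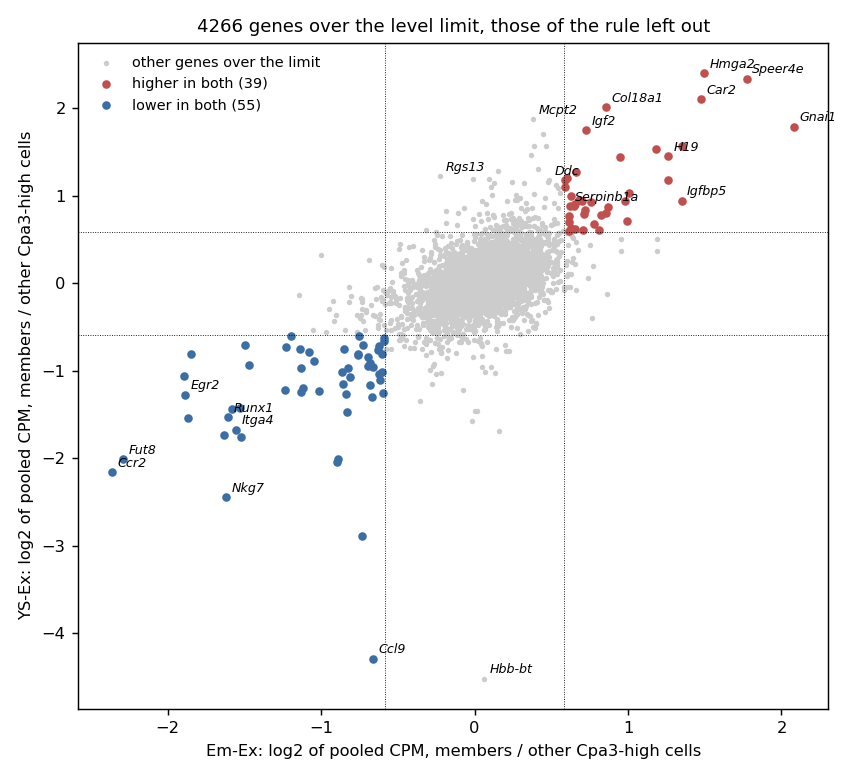
Log2 ratio of the pooled CPM of selected cells to that of the other Cpa3-high cells, Em-Ex on the x axis and YS-Ex on the y axis, for 4266 genes, with dotted lines at 1.5-fold. The 39 genes higher in both libraries (red) and the 55 lower in both (blue) lie in opposite corners, while *Hbb-bt* and *Rgs13* differed between the libraries.

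*Gnai1*, which encodes an inhibitory G protein alpha subunit, ranked first among the higher genes by the ratio nearer to 1, and it passed the level limit through the selected cells alone. It stood at 55.2 CPM against 13.05 CPM in Em-Ex, a ratio of 4.23 (3.54 to 5.06), and at 46.3 against 13.4 CPM in YS-Ex, a ratio of 3.45 (2.63 to 4.47). After thinning it was found in 12.4% and 11.1% of selected cells, against 3.33% and 3.35% of the other cells and 3.10% and 4.96% of Cpa3-low cells. In YS-Ex 1 selected cell held 23.6% of the *Gnai1* UMIs and 5 cells 52.8%, and without the highest cell the ratio was 2.66. *Speer4e*, of a family of near-identical copies whose reads may be shared, was at 114 against 33.3 CPM in Em-Ex and 40.5 against 8.04 CPM in YS-Ex. After thinning it was found in 16.4% and 7.94% of selected cells and in 8.94% and 32.3% of Mcpt1-high cells. Without the cell with the most UMIs in each library, its ratios were 3.13 and 4.36, so the first rank of *Gnai1* rested on 1 YS-Ex cell.

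*Hmga2*, which encodes a chromatin protein of fetal and stem cells, was at 57.8 against 20.5 CPM in Em-Ex and at 39.3 against 7.44 CPM in YS-Ex, ratios of 2.82 (2.39 to 3.31) and 5.27 (3.87 to 7.10). *H19*, the maternally expressed imprinted RNA, was at 1057 against 442 CPM and at 1192 against 436 CPM, ratios of 2.39 (2.31 to 2.48) and 2.74 (2.60 to 2.87). *Igf2*, its paternally expressed neighbour encoding a growth factor, was at 26.2 against 15.9 CPM in Em-Ex and at 349 against 104 CPM in YS-Ex. The 2 imprinted genes over the level limit, neighbours on 1 chromosome, were both higher in both libraries, against 0.914% of all genes, and they were higher still in the Mcpt1-high cells that the selection left out. There *H19* was at 2033 CPM for Em-Ex and 3951 CPM for YS-Ex, and *Igf2* at 87.1 and 1463 CPM. *Hmga2* was at 8.98 and 22.3 CPM in Mcpt1-high cells and at 241 and 113 CPM in Cpa3-low cells.

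*Edil3*, which encodes an integrin-binding matrix protein, had ratios of 2.55 (2.15 to 3.01) in Em-Ex and 2.95 (2.15 to 3.99) in YS-Ex, and *Pmp22*, a membrane protein of myelin, 2.27 and 2.88. *Adgrg3*, an adhesion G protein-coupled receptor, had ratios of 2.40 and 2.25, *Loxl2*, a collagen cross-linking enzyme, 2.00 and 2.04, *Igfbp5*, a binding protein of insulin-like growth factors, 2.55 and 1.92, and *Col18a1*, a basement membrane collagen, 1.81 and 4.01. The direction turned for *Igfbp5* with cells chosen without *Hapln1* (log2 ratio -0.28) and in male-called cells (-0.24), and for *Loxl2* in male-called cells (-0.33). Each of these values is that of the library where the ratio was lower. *Cd244*, an immune receptor of the SLAM family, had ratios of 1.83 and 1.81 and *Cd93*, a membrane protein of progenitors and endothelium, 1.62 and 1.92. After thinning *Cd244* was found in 10.6% and 7.14% of selected cells and in 13.8% and 3.23% of Mcpt1-high cells. *Ctla2a*, an inhibitor of cathepsin-type proteases, was at 2227 against 1317 CPM and at 1594 against 836 CPM, and its close copy *Ctla2b* at 110.2 against 57.3 CPM and at 118 against 43.3 CPM, with reads that may be shared.

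*Car2*, a catalytically active carbonic anhydrase and the only relative of *Car8* over the level limit, was at 104 against 37.6 CPM in Em-Ex and at 33.5 against 7.83 CPM in YS-Ex, ratios of 2.78 (2.46 to 3.13) and 4.27 (3.08 to 5.84). With cells chosen without *Hapln1* its direction turned, to a log2 ratio of -0.84 in the library where it was lower. After thinning *Car2* was found in 9.49% and 7.94% of selected cells and in 25.5% and 4.26% of Cpa3-low cells. *Gch1*, which makes the tetrahydrobiopterin needed for serotonin synthesis, had ratios of 1.99 and 1.63, and *Slc7a5*, a large neutral amino acid transporter, 1.75 and 1.53. *Hpgds*, the prostaglandin D2 synthase of mast cells, had ratios of 1.52 and 2.30, *Galc*, a lysosomal galactosylceramidase, 1.76 and 1.70, and *Gcsh*, of the glycine cleavage system, 1.64 and 1.78. *Creb3l2*, a membrane-bound transcription factor, had ratios of 1.81 and 1.74 and *Nav1*, a microtubule-associated protein, 1.96 and 1.91. *Nav1* passed the level limit through the selected cells alone.

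*Serpinb1a*, given as a mark of these cells, was among the 39 genes, at 1775 against 1155 CPM in Em-Ex and 1340 against 727 CPM in YS-Ex (ratios of 1.54 and 1.84). *Ddc* was not, since its Em-Ex ratio of 1.397 (1.23 to 1.58), from 82.7 against 59.2 CPM, stayed below 1.5. In YS-Ex *Ddc* was at 79.1 against 35.1 CPM, a ratio of 2.25 (1.85 to 2.73). Of the 14 genes of monoamine synthesis and storage over the level limit, 2 were higher in both libraries (*Gch1* and *Slc7a5*, against 0.914% of all genes) and none lower. Each call rested on 1 YS-Ex cell, without which the YS-Ex ratio was 1.496 for *Gch1* and 1.42 for *Slc7a5*. *Hdc*, which makes histamine, was at 3437 against 2733 CPM in Em-Ex and 2076 against 2077 CPM in YS-Ex, and *Tph1*, the first enzyme of serotonin synthesis in mast cells, at 1016 against 1307 and 1383 against 1488 CPM.

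The lower genes were led by *Ccr2*, the receptor that draws monocytes and mast cell progenitors to CCL2. It stood at 27.7 against 143 CPM in Em-Ex, a ratio of 0.194 (0.159 to 0.235), and at 75.9 against 341 CPM in YS-Ex, a ratio of 0.223 (0.184 to 0.267). After thinning it was found in 6.20% of selected cells against 27.6% of the other cells in Em-Ex and in 16.7% against 42.4% in YS-Ex. In Cpa3-low cells, a mixed set, the *Ccr2* shares were 7.00% and 13.5%. In Mcpt1-high cells they were 16.3% in Em-Ex and, among 31 cells, 9.68% in YS-Ex, so low *Ccr2* in YS-Ex was not particular to the selected cells. *Itga4*, the alpha 4 integrin used for homing, was at 7.57 against 22.6 CPM and 41.2 against 133 CPM. *Fut8*, the enzyme of core fucosylation and next to *Ccr2* in rank, was at 7.57 against 37.6 CPM and 32.8 against 134 CPM, *Nkg7*, a granule protein of cytotoxic cells, at 12.4 against 38.3 and 10.3 against 57.8 CPM, and *Cpb1*, a carboxypeptidase, at 58.3 against 169 and 136 against 367 CPM.

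Among the 15 mast cell and myeloid transcription factors over the level limit, 3 were lower in both libraries, against 1.29% of all genes, and none higher, against 0.914%. *Runx1*, the master regulator of blood cell emergence, was at 19.4 against 59.6 CPM in Em-Ex and 65.6 against 190 CPM in YS-Ex, ratios of 0.326 (0.256 to 0.411) and 0.345 (0.280 to 0.419). *Ikzf2* (Helios) had ratios of 0.329 and 0.363 and *Lmo4*, a LIM domain cofactor, 0.591 and 0.564. *Gata2*, which mast cells need, was at 540 against 555 CPM and 674 against 731 CPM, and *Spi1* (PU.1) at 121 against 118 and 95.2 against 90.4 CPM. The list median log2 ratio was -0.10 in Em-Ex and -0.10 in YS-Ex.

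Some immediate early genes, which are induced soon after stimulation, and some cytokines of activated mast cells were lower in the selected cells, while most of either list did not pass 1.5-fold in both libraries. Of 19 immediate early genes over the level limit, 5 were lower, against 1.29% of all genes (*Egr1*, *Egr2*, *Nr4a1*, *Nr4a2* and *Btg2*) and none higher, with list medians of -0.33 and -0.38 on the log2 scale. *Egr2* was at 7.57 against 28.4 CPM in Em-Ex and 19.9 against 49.0 CPM in YS-Ex, and *Egr1* at 248 against 373 and 371 against 586 CPM. Of 9 mast cell cytokines over it, 4 were lower (*Il6*, *Il13*, *Ccl9* and *Osm*) and none higher, with medians of -0.66 and -0.64. *Il13*, a type 2 cytokine, was at 13.6 against 50.9 CPM and 32.2 against 67.8 CPM, and *Il6* at 40.9 against 74.3 and 45.04 against 101 CPM. *Tnf* went the other way, at 94.8 against 74.6 CPM in Em-Ex and 64.3 against 48.6 CPM in YS-Ex, below 1.5-fold. The antiproliferative *Tob1* had ratios of 0.317 and 0.294, *Ankrd44*, a phosphatase subunit, 0.422 and 0.428 and *Hba-a1*, an alpha globin, 0.344 and 0.289.

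Lists around the selection genes were read by counts and summed levels. No gene of the 16 over the level limit in glycolysis and gluconeogenesis, the 8 of calcium release and entry, the 10 of hyaluronan and proteoglycans or the 8 of the B7 family and other checkpoints was 1.5 times higher or lower in both libraries, where 0.914% and 1.29% of all genes were, shares at which lists of this size hold few or no such genes. The sum ratios in Em-Ex and YS-Ex were 1.14 and 0.996 for glycolysis, 1.21 (1.18 to 1.24) and 1.06 for calcium release and entry, 0.954 and 0.908 for hyaluronan and proteoglycans, and 0.980 and 0.936 for checkpoint genes. The carbonic anhydrase list, with 8 genes in the table and summed without *Car8*, had sum ratios of 2.05 (1.83 to 2.28) and 1.497 (1.14 to 1.93), with *Car2* its single gene over the limit. The sums were 112 against 54.9 CPM in Em-Ex and 41.8 against 27.9 CPM in YS-Ex. Of these, *Car2* was 104 against 37.6 CPM and 33.5 against 7.83 CPM, so the rise was that of *Car2*, and the rest of the list summed lower in both libraries. The glycolytic medians were 0.16 in Em-Ex and -0.13 in YS-Ex on the log2 scale. *Ldha*, lactate dehydrogenase, was at 2551 against 2059 CPM and 1540 against 1306 CPM, and *Gapdh* at 1826 against 1703 CPM in Em-Ex and 1010 against 1224 CPM in YS-Ex. Of 23 S phase and 32 G2/M genes, none was 1.5 times higher or lower in both libraries, near the 0.914% and 1.29% of all genes. In YS-Ex alone, however, 9 of the 23 S phase genes were 1.5 times higher, against 3.66% of all genes, and 17 of the 23 were above the other cells in both libraries, as were 44.3% of all genes. The S phase sum ratio was 1.05 (1.02 to 1.08) in Em-Ex and 1.35 (1.30 to 1.41) in YS-Ex. Of the 32 G2/M genes 3 were higher in Em-Ex, against 1.59% of all genes, and 1 in YS-Ex, against 3.66%. In both libraries 20 of the 32 were above the other cells, where 44.3% of all genes were, and 1 was below. The S phase median was 0.19 in Em-Ex and 0.53 in YS-Ex and the G2/M median 0.38 and 0.16. *Tipin*, a replication fork protein, was at 92.0 against 55.7 CPM in YS-Ex and 109.7 against 86.1 CPM in Em-Ex.

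Some genes had unlike ratios in the libraries. *Mcpt2*, a mucosal mast cell protease, was at 390 against 299 CPM in Em-Ex and at 555 against 151 CPM in YS-Ex, ratios of 1.30 (1.23 to 1.38) and 3.67 (3.40 to 3.95). A few cells carried it: 1 YS-Ex cell held 50.5% of the *Mcpt2* UMIs of the selected cells there and 5 cells 72.2%, and without these 5 the YS-Ex ratio was 1.06. In Em-Ex 5 cells held 27.4%, and without them the *Mcpt2* ratio was 0.963. *Rgs13*, a regulator of G protein signalling in mast cells, was at 177 against 207 CPM in Em-Ex and at 450 against 192 CPM in YS-Ex. *Cma1* was 0.960 times the level of the other cells in Em-Ex and 1.21 times in YS-Ex. *Hbb-bt*, a beta globin, stood at 56.0 against 53.8 CPM in Em-Ex and at 6.43 against 155 CPM in YS-Ex. These differences between the libraries were not tested.

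Levels of several genes were also compared along the range of the 5-gene sum. The highest bin is the selected cells, in which the called genes differ by the way they were called, so a difference between the ends is a description. All Cpa3-high cells were put into 8 bins by the sum, the lowest of which joined the cells tied at 0 with those next to them. *H19* went from 182 CPM in the lowest bin to 1057 CPM in the highest in Em-Ex and from 113 to 1192 CPM in YS-Ex, where the bin below the limit, at 1543 CPM, was higher. *Serpinb1a* went from 741 to 1775 CPM and from 595 to 1340 CPM, and *Ddc* from 36.0 to 82.7 CPM and from 17.4 to 79.1 CPM. In the opposite direction, *Ccr2* went from 247 to 27.7 CPM in Em-Ex and from 441 to 75.9 CPM in YS-Ex, and *Runx1* from 80.3 to 19.4 CPM and from 222 to 65.6 CPM. The course was not even for *Runx1*, which in Em-Ex was at 81.0 CPM in the fourth bin, above the lowest bin. In the bin just below the limit, which holds no selected cell, *Ccr2* was at 69.5 CPM in Em-Ex and at 97.3 CPM in YS-Ex, and *Serpinb1a* at 1628 and 1055 CPM. *Kit* stayed between 329 and 359 CPM in the 8 Em-Ex bins, and in YS-Ex was at 860 CPM in the lowest bin and between 1020 and 1156 CPM in the others. *Hmga2* in Em-Ex instead stayed between 12.1 and 26.9 CPM in the bins below the limit and was at 57.8 CPM above it, while in YS-Ex it went from 3.05 to 23.3 CPM below the limit and was at 39.3 CPM above it.

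**Figure D4:**
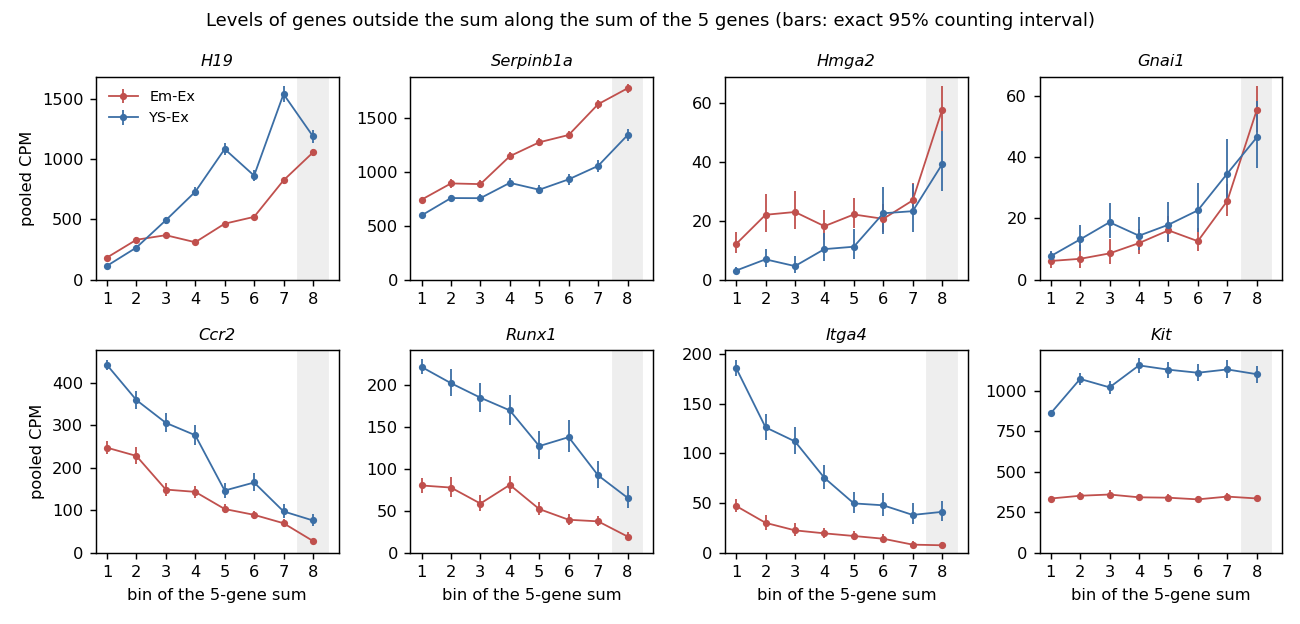
Pooled CPM of 8 genes outside the selection in 8 bins of the 5-gene sum, with exact 95% counting intervals, for Em-Ex (red) and YS-Ex (blue); the grey band marks the selected cells, whose difference had defined the called genes. *H19* and *Serpinb1a* were higher and *Ccr2*, *Runx1* and *Itga4* lower at the upper end than at the lower end in both libraries, while *Kit* in Em-Ex lay between 329 and 359 CPM.

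The selected cells were then read apart by the gene that led the sum, a division made after their values were seen. In the 33 *Fbp2*-led Em-Ex cells 50 of the 55 were below the non-selected cells, and in the 86 *Fbp2*-led YS-Ex cells all 55. In the 77 *Hapln1*-led Em-Ex cells 54 of 55 were below, and in the 101 *Car8*-led Em-Ex cells all 55. Since these cells had defined the 55 genes, the counts only show which cells contributed. *Ccr2* was at 36.3 CPM in *Fbp2*-led, 22.6 CPM in *Hapln1*-led and 22.1 CPM in *Car8*-led Em-Ex cells, each below the 143 CPM of the other Cpa3-high cells. In the 5 *Pxdc1*-led YS-Ex cells it was at 326 CPM, near the 341 CPM of non-selected cells. At 1.5-fold the lower genes numbered 35 of 55 in *Fbp2*-led, 42 in *Hapln1*-led and 48 in *Car8*-led Em-Ex cells, and the higher genes 18, 34 and 26 of 39.

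Some genes differed between the *Fbp2*-led cells and the rest of the selected cells, not all of them in both libraries. *Cpb1* was at 247 CPM in *Fbp2*-led cells of Em-Ex and 36.3 CPM in the other selected cells, a ratio of 6.80 (5.19 to 8.88), and at 171 against 42.4 CPM in YS-Ex, a ratio of 4.03 (2.48 to 6.95). In Em-Ex the *Fbp2*-led cells stood above the 169 CPM of the non-selected cells, and the other selected cells below it. *Fut8* was likewise less reduced in *Fbp2*-led cells, at 41.6 against 9.42 CPM in YS-Ex. *Gnai1* was at 17.7 CPM in *Fbp2*-led YS-Ex cells, near the 13.4 CPM of non-selected cells, and at 122 CPM in the other selected cells of that library. In Em-Ex *Gnai1* was at 43.6 CPM in *Fbp2*-led cells, 3.34 times (1.95 to 5.37) the level of non-selected cells, with a ratio to the other selected cells of 0.770 (0.447 to 1.25). *Igf2* in Em-Ex was at 79.9 CPM in *Fbp2*-led cells and 20.0 CPM in the other selected cells, a ratio of 3.995 (2.56 to 6.12), against 15.9 CPM in non-selected cells. In YS-Ex *Igf2* went the other way, at 315 against 440 CPM, a ratio of 0.716 (0.598 to 0.859).

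**Figure D5:**
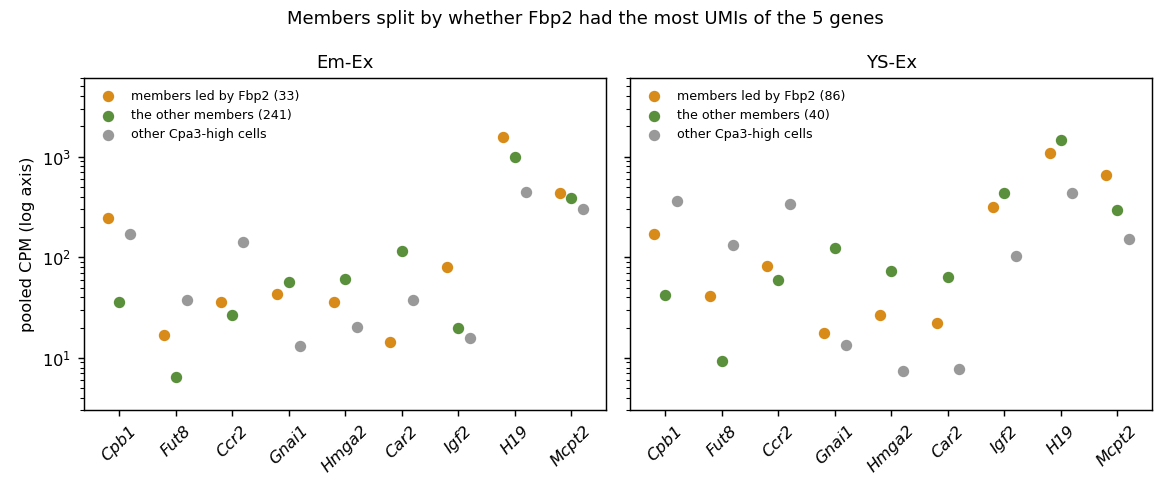
Pooled CPM (log axis) of 9 genes in selected cells led by *Fbp2*, in the other selected cells and in the other Cpa3-high cells, for Em-Ex (33 and 241 selected cells) and YS-Ex (86 and 40). *Cpb1* and *Fut8* are higher and *Car2*, *Hmga2* and *Gnai1* lower in *Fbp2*-led cells than in the other selected cells in both libraries, with counting intervals that hold equal levels for *Hmga2*, *Gnai1* and *Fut8* in Em-Ex.

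*Car2* in Em-Ex was carried by a few *Hapln1*-led cells. There it stood at 292 CPM in the 77 *Hapln1*-led cells, against 37.6 CPM in non-selected cells, and at 14.5 CPM in *Fbp2*-led, 26.3 CPM in *Pxdc1*-led and 27.8 CPM in *Car8*-led cells. Of the 349 *Car2* UMIs in *Hapln1*-led cells, 259 were in 5 cells, and 28 of the 77 cells had any. In YS-Ex, 25 of the 52 *Car2* UMIs were in *Fbp2*-led cells, at 22.1 against 7.83 CPM in non-selected cells, and 9 in *Hapln1*-led cells. Over all selected cells, the cell with the most *Car2* UMIs held 27.8% of them in Em-Ex and 26.9% in YS-Ex, and without it the ratios were 2.02 and 3.13.

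How evenly the other higher genes were spread differed between them. The 5 cells with the most UMIs of a gene held a median of 13.9% of its UMIs in selected cells of Em-Ex and 30.2% in YS-Ex over the 39 genes. For *Igfbp5* in YS-Ex they held 78.1%, and for *Edil3* in Em-Ex 12.6%. Without the cell with the most UMIs, 24 of the 39 genes were still 1.5 times higher in both libraries, and the other 15 had ratios of at least 1.44 in Em-Ex and 1.31 in YS-Ex. *Gch1*, *Slc7a5*, *Gfi1* and *Hpgds* were among the 15. *Gnai1* in YS-Ex was then 2.66 times higher and *Hmga2* 4.90 times.

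The sexes of the pooled concepti were unevenly represented. Cells called male, with any UMI of the Y-linked *Ddx3y*, *Eif2s3y*, *Kdm5d* and *Uty* but without *Xist*, made up 16.5% (12.2 to 21.6) of the selected Em-Ex cells with a UMI of either kind, against 18.9% of the other Cpa3-high cells. In YS-Ex they made up 51.0% (41.0 to 60.9) against 33.1% (30.9 to 35.5). Among *Fbp2*-led YS-Ex cells the share was 60.6% (48.3 to 72.0), and among the other selected YS-Ex cells 30.3% (15.6 to 48.7). After thinning to 3000 UMIs these shares were 37.2% (23.0 to 53.3) and 18.5% (6.30 to 38.1), with overlapping intervals. *Xist* was at 748 against 890 CPM in Em-Ex and at 482 against 991 CPM in YS-Ex. Thinned to 3000 UMIs, the YS-Ex shares were 30% (19.6 to 42.1) and 20.1% (17.9 to 22.3), with overlapping intervals. The comparison was repeated within each sex: 28 of the 39 higher and 46 of the 55 lower genes were called again in female-called cells, and 15 and 33 in the fewer male-called cells. Cells with UMIs of both kinds were 3.46% of the informative selected cells in Em-Ex and 0.962% in YS-Ex, against 4.22% and 4.55% of the others.

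*Fbp2*, *Hapln1* and *Pxdc1* of the selection and *Serpinb1a*, *Edil3*, *Ctla2a* and *Ctla2b* among the higher genes all lie on chromosome 13. Of 153 genes of that chromosome over the level limit, without those of the selection, 4 were higher in both libraries (2.61%, against 0.914% of all genes) and 1 lower. The 4 are not all separate: *Ctla2a* and *Ctla2b* are neighbouring copies whose reads may be shared, and *Edil3* lies near *Hapln1*. Its summed level was 1.06 times that of the other cells in Em-Ex, the highest ratio of the 20 chromosomes there, and 1.04 times in YS-Ex, where chromosome 14 was highest at 1.11 times, and its median log2 ratio was 0.08 and 0.07, near the 0.07 and 0.04 of all genes.

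Between the libraries, the selected cells differed in the same direction as their surroundings for several genes. *Kit* in selected cells of Em-Ex was 0.304 times (0.283 to 0.327) its level in those of YS-Ex, and 0.348 times in the other Cpa3-high cells. *Runx1* was 0.296 and 0.313 times, *Ccr2* 0.365 and 0.419 times and *Itga4* 0.184 and 0.170 times. *Ddc* was at 1.05 times (0.847 to 1.30) in selected cells and 1.69 times (1.54 to 1.84) in the others. Since tissue of origin and library coincide, these differences cannot be told apart from differences between 2 libraries.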

How the data were processed

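Transcripts of the sorted cells, in 1 library of each tissue, were counted by the authors with Cell Ranger 2.0.1 on mm10 after bcl2fastq 2.19.1.403, and UMI counts per gene and cell were deposited without normalization in a table of 11691 genes. The annotation is not given in the sources used here. The libraries held 48630888 and 34566242 UMIs, and 0 cell columns were left unmapped. Within each library every gene had UMIs in at least 30 barcodes or in none.

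Levels were pooled UMIs per 1000000 (CPM). Genes with at least 20 CPM in either group of both libraries were compared, without the 7 genes of the selection, and called at 1.5-fold in both libraries. Log2 ratios used a prior count of 0.5. Cells are not replicates, so no p-value was computed. No doublet caller was run. Of 11691 genes, 11456 were placed on chromosomes by symbol. Besides the selection genes, *Ddc*, *Serpinb1a* and 4 sort genes, the named genes were the 20 highest and 12 lowest called genes by the ratio nearer to 1, the 8 with the largest difference between libraries, and from 33 lists the called genes or the 4 highest by CPM; *Cpb1*, *Car2* and other genes read by leading gene were singled out after their values were seen. The members and lists were chosen with earlier results of these data known. The steps were tested on simulated data. Python 3.11.15, numpy 2.4.6, scipy 1.17.1, pandas 2.3.3 and matplotlib 3.10.9 were used.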

Additional observations from a re-analysis of the deposited data

Results flagged for a closer look

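Several values went in opposite directions in the libraries, with counting intervals on either side of equal levels; the differences between the libraries were not tested. Read in cells chosen by the other 4 genes, *Fbp2* had a ratio of 0.765 in Em-Ex and 4.42 in YS-Ex. Selected against other Cpa3-high cells, the ratios in Em-Ex and YS-Ex were 0.855 and 2.34 for *Rgs13*, 0.960 and 1.21 for *Cma1*, and 0.907 and 1.05 for *Tpsb2*. They were 1.07 and 0.825 for *Gapdh*, 1.10 and 0.926 for *Csf2rb2*, 0.809 and 1.07 for *Ier2*, and 0.921 and 1.10 for *Ier3*. For the Y-linked *Eif2s3y* they were 0.709 and 1.36.

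Cells outside the comparison also passed the limit of the 5-gene sum. Among Cpa3-high barcodes removed by the cell filter, 21 of 252 did so in Em-Ex (8.33%), as did 32 of 877 from YS-Ex (3.65%). Among Mcpt1-high cells the shares were 7.32% (9 of 123) and 29.0323% (9 of 31), and among Cpa3-low cells 6.89% (60 of 871) and 7.09% (10 of 141).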

How the results depend on the processing

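No paired analysis was possible because each group was 1 library, and for the same reason no replicate could be left out. The shares of Em-Ex and YS-Ex cells selected were 10.0144% and 10.0261% with the top 10% taken within each library, 6.50% and 3.39% with the top 5%, 27.0% and 12.5% with the top 20%, and 16.0327% and 3.50% without *Fbp2* in the sum. The YS-Ex share was 8.09% without *Car8*, and the Em-Ex share 11.1% in cells of 8000 to 16000 UMIs. Within cells called female or male, an alternative chosen after seeing the data, the YS-Ex share was 4.64% and 8.85%. Against 39 genes higher in both libraries, 63 were called with equal weights, 25 with a sum after thinning, 24 without *Hapln1*, 25 after centring and 76 in male-called cells. With no level limit 200 genes were higher and 356 lower, with a limit of 100 CPM 11 and 9, and at 2-fold 9 and 16. Of the 39 higher and 55 lower genes, 26 and 37 were called again when chosen and read on separate UMIs, 15 and 38 without *Hapln1*, and 17 and 34 in cells of 8000 to 16000 UMIs. Of 748 values of 34 genes, 592 lay within the 95% counting interval of the value reported, 152 lay outside it and 4 reversed: without *Hapln1* the log2 ratio was -0.84 for *Car2* and -0.28 for *Igfbp5*, and in male-called cells -0.33 for *Loxl2* and -0.24 for *Igfbp5*. Each of these 4 values is that of the library where the ratio was lower. The cause was not tested. Depth limits what a cell without a UMI shows, since *Fbp2* shares changed with thinning.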
